A study of Mus musculus with 6 samples.

Results

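The chromobox, Polyhomeotic and sex-comb subunits of canonical Polycomb repressive complex 1 (PRC1) were examined in mouse oocytes at the germinal vesicle (GV) stage, when growth is complete and meiosis has not resumed. They are the 8 genes Cbx2, Cbx6, Cbx7, Cbx8, Phc1, Phc2, Phc3 and Scmh1, found by their Entrez identifiers among the 24421 genes of the deposited count table. The series held 6 RNA-seq libraries. The DKO group had 3 libraries of the genotype Ring1 -/-; Rnf2 f/f; Zp3-cre, in which the Cre recombinase is driven by an egg-coat gene promoter active in growing oocytes. The SKO group had 3 libraries of the genotype Ring1 -/-; Rnf2 f/f, without the transgene. Ring1, one of the paired catalytic E3 ligases of PRC1, is therefore null in every library, and the comparison addresses the further loss of the other ligase, Rnf2, during oocyte growth. Only DKO mice carried Cre, so its own effect and that of the deletion cannot be told apart. Each library was made from 15 oocytes pooled from 1 female aged about 3 months, on a background mixed from FVB, 129/Sv and C57BL/6J.

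Canonical PRC1 is built on a RING ligase and a PCGF protein. A CBX protein, whose chromodomain reads the H3K27me3 mark laid down by PRC2, brings it to chromatin, and a PHC protein, which polymerises through its SAM domain, gathers it into clusters. SCM proteins such as SCMH1 carry a SAM domain too and can join the PHC polymer. These subunits make no ubiquitin mark themselves, and each family has paralogs that take the same place in the complex, so a cell's PRC1 can differ in its reader and in its clustering subunit.

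The libraries held 15521975 to 26652745 counts, and 3 counts, the limit that a count of 0 allows, corresponded to 0.116 to 0.171 CPM (read counts scaled by the TMM-adjusted size of each library). These limits cover counting error only, since the RNA was amplified before sequencing. Oocyte identity was evident in every library, with the 15 oocyte markers listed (such as Gdf9, Bmp15, Zp2 and Zp3) summing to 13240 to 16960 CPM in DKO and 22280 to 23430 CPM in SKO. Rnf2, the targeted gene, averaged 36.6 ± 17.5 CPM over the DKO mice and 190.0 ± 11.8 CPM over the SKO mice (SD, n = 3 each), and Ring1 had at most 13 counts in any library. Of 14845 genes tested, 24.7% were called (edgeR quasi-likelihood test, Benjamini-Hochberg adjusted p under 0.05), 17.3% as higher and 7.41% as lower in DKO. Of the calls, 70.0% were rises under TMM scaling and 83.0% under library totals alone, which moved the median log2 fold change of all genes from 0.04 to 0.20.

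Phc3 rose in DKO oocytes by close to 1 on the log2 scale, and in the reported fit no change was called in the other subunit genes tested. Of the 8 genes, 7 passed the filter on low counts and 1 of those, Phc3, was called, with a rise. That is 14.3% of the members tested, against 24.7% of all genes. In the reported edgeR fit 0 members were called lower, also at an unadjusted p under 0.05 and by DESeq2 and voom (0 each). Phc2 was called lower (-0.59) by edgeR once the GC and length trend was removed (adjusted p = 0.0265, or 0.0168 with the replicate block). The median log2 fold change (DKO over SKO) of the 7 was 0.13, beside 0.04 for all tested genes. Phc3 was also the only tested member whose CPM ranges in the 2 genotypes did not overlap, a separation seen in 44.3% of all tested genes.

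**Figure D1:**
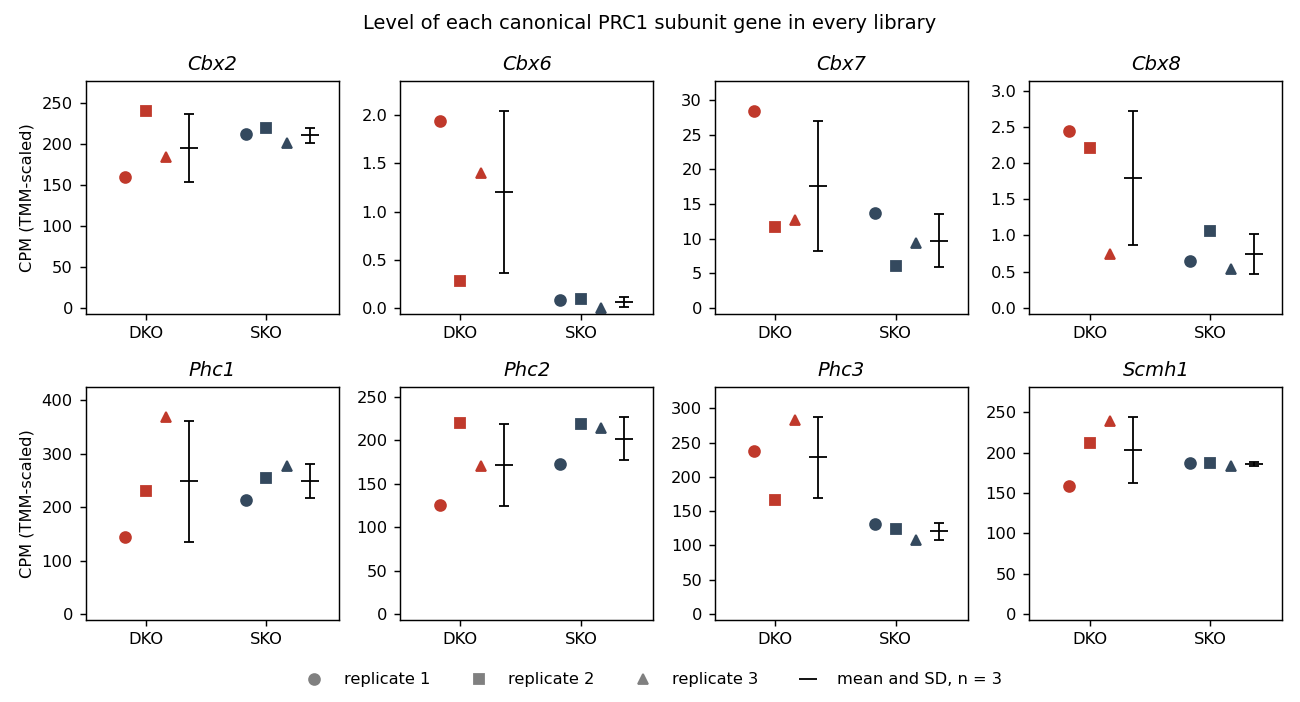
CPM of each subunit gene (y axis, linear, a separate scale in each panel) in the 3 DKO and 3 SKO libraries; marker shapes give the replicate number, and the bar beside each group is the mean with its SD. The Phc3 libraries of DKO lie at 166 to 283 CPM, all above the SKO libraries at 107 to 131 CPM, while the groups overlap for Cbx2, Cbx7, Cbx8, Phc1, Phc2 and Scmh1.

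Phc3 (Entrez 241915, chromosome 3, 30899295 to 30969479, GRCm38) encodes a mammalian Polyhomeotic paralog. It measured 238, 166 and 283 CPM in DKO replicates 1 to 3, against 131, 124 and 107 CPM in SKO replicates 1 to 3. Every DKO library exceeded every SKO library, with DKO replicate 2 closest to them. The mean was 229 ± 59.0 CPM in the DKO group and 121 ± 12.2 CPM in the SKO group (SD, n = 3 each), a log2 fold change of 0.92 (SE 0.21, 95% interval 0.46 to 1.39, edgeR adjusted p = 0.00982), or 1.89-fold. The call was lost without SKO replicate 3 (log2 fold change 0.83, adjusted p = 0.0559) and held without each of the other 5 libraries. No other gene of the table overlaps Phc3.

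The RefSeq promoter of Phc3 and that of its uncalled paralog Phc1 are shown for comparison, as the 250 bases before the transcript start that the RefSeq promoter table gives on the minus strand (GRCm38.p6), with CG dinucleotides in capitals. The windows are chr3:30969416-30969665 and chr6:122340228-122340477. The Phc3 start in that table lies inside the gene span given above, so 64 bases of its window are within the span, against 0 for Phc1.
Phc3: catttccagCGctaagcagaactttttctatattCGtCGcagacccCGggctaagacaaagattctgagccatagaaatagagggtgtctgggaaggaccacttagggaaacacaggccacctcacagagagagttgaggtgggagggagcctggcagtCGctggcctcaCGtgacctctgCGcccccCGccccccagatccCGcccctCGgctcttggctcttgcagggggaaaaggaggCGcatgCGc
Phc1: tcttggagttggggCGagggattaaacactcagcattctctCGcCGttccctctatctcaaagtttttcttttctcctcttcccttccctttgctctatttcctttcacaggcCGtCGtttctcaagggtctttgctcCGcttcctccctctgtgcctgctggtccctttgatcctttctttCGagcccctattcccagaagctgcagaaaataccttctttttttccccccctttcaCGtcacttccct
The Phc3 window holds 12 CG dinucleotides, a number reached by 33.5% of the 32851 such windows in the RefSeq table, and the Phc1 window holds 8, reached by 43.0%. CACGTG, a palindrome that reads the same on both strands and is known as an E-box, begins 82 bases before the Phc3 start of that table and is not in the Phc1 window. It is found in 6.02% of all windows. Of the 7 members with a window in the table, Cbx6, Cbx8, Phc2 and Phc3 hold it. These members have 10 windows, and Phc2 holds it in only 1 of its 3, so the count by gene is not on the scale of the share by window. These letters describe the windows and are not evidence of binding.

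Phc1 (Entrez 13619, chromosome 6, 122317731 to 122340227), the Polyhomeotic paralog first known in mice as Rae28, was the most variable abundant member. It measured 145, 230.3 and 369 CPM in DKO replicates 1 to 3, against 214, 255 and 278 CPM in SKO replicates 1 to 3. DKO replicate 1 lay below and DKO replicate 3 above every SKO library, and the means were 248 ± 113 CPM in the DKO group and 249 ± 32.4 CPM in the SKO group (SD, n = 3 each). The log2 fold change was 0.00 (95% interval -0.64 to 0.64, edgeR adjusted p = 0.996), and the interval leaves room for a change either way. It was 0.27 without DKO replicate 1 and -0.41 without DKO replicate 3, neither of them called.

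Phc2 (Entrez 54383, chromosome 4, 128654655 to 128752881), the paralog whose SAM domain has been studied for PRC1 clustering, showed no call. Its levels were 126, 219.5 and 170.0 CPM in DKO replicates 1 to 3, against 173, 219 and 214 CPM in SKO replicates 1 to 3. DKO replicates 1 and 3 lay below the SKO libraries, and DKO replicate 2 matched the highest of them. The log2 fold change was -0.23 (SE 0.21, 95% interval -0.71 to 0.24, edgeR adjusted p = 0.463). Once the dependence on GC and length had been taken out, it was -0.59 and called (adjusted p = 0.0265).

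Set per kilobase of the deposited gene length, Phc1 was the leading Polyhomeotic transcript in both genotypes, with 54.3 ± 24.8 CPM per kilobase in DKO and 54.4 ± 7.09 in SKO. Phc2 followed with 25.9 ± 7.07 CPM per kilobase in DKO and 30.4 ± 3.79 in SKO, and Phc3, by far the longest of them at 14024 bases, came last with 16.3 ± 4.21 CPM per kilobase in DKO and 8.61 ± 0.87 in SKO (SD, n = 3 each). The order Phc1 over Phc2 over Phc3 held within each of the 6 libraries. Phc3 made up 17.8 ± 6.55% of the summed level of the 3 genes in DKO and 9.35 ± 1.91% in SKO. By library its share was 25.1, 12.4 and 15.9% in DKO replicates 1 to 3, against 11.4, 9.05 and 7.60% in SKO replicates 1 to 3. The summed level itself was 96.5 ± 29.5 CPM per kilobase in DKO and 93.5 ± 9.89 in SKO, so the 2 genotypes overlapped in the size of the pool.

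**Figure D2:**
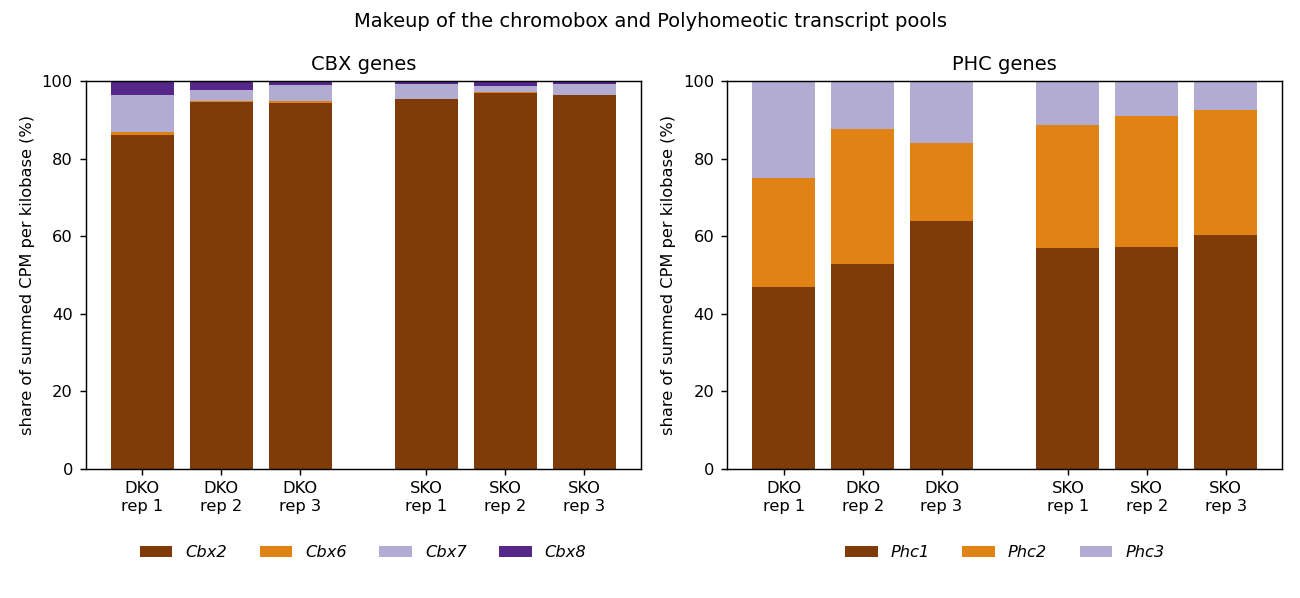
Share of each paralog in the summed CPM per kilobase of its family (y axis, percent) in each library, for the 4 chromobox genes on the left and the 3 Polyhomeotic genes on the right. Cbx2 fills 86.0 to 94.7% of the chromobox bars in DKO and 95.3 to 97.0% in SKO; Phc3 takes 12.4 to 25.1% of the Polyhomeotic bars in DKO and 7.60 to 11.4% in SKO.

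A ratio of 2 genes within 1 library needs no scaling between libraries, and the 9 paralog pairs were compared in this way with a two-sided exact permutation test, which cannot give a p under 0.10 with 3 libraries against 3. The log2 ratio of Phc1 to Phc3 was 0.90, 2.09 and 2.0 in DKO replicates 1 to 3, against 2.32, 2.66 and 2.99 in SKO replicates 1 to 3. These groups did not overlap, and the mean difference, DKO minus SKO, was -0.99 (exact permutation p = 0.10, 0.257 adjusted over the 9 pairs). For Phc2 to Phc3 the difference was -1.16, with DKO replicate 2 level with SKO replicate 1 at 1.48 (exact permutation p = 0.20, 0.257 adjusted). For Phc1 to Phc2 it was 0.17, within the spread of the DKO libraries (SD 0.57, exact permutation p = 1.0).

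Scmh1 (Entrez 29871, chromosome 4, 120405150 to 120530200), which encodes an SCM protein with MBT repeats and a SAM domain, was the steadiest member in SKO. It measured 158, 212 and 239 CPM in DKO replicates 1 to 3, against 187, 187 and 183 CPM in SKO replicates 1 to 3. The DKO libraries lay on both sides of the narrow SKO range. The log2 fold change was 0.13 (SE 0.18, 95% interval -0.27 to 0.53, edgeR adjusted p = 0.647).

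Among the chromobox readers, Cbx2 (Entrez 12416, chromosome 11, 119023019 to 119031275), known in mice for chromatin compaction and for its part in gonad development, accounted for nearly all of the level. It measured 159, 240.3 and 184 CPM in DKO replicates 1 to 3, against 211, 219 and 201 CPM in SKO replicates 1 to 3. The DKO values again surrounded those of SKO. The log2 fold change was -0.11 (SE 0.18, 95% interval -0.52 to 0.29, edgeR adjusted p = 0.689). Per kilobase, Cbx2 reached 51.8 ± 11.1 CPM in DKO and 56.0 ± 2.48 in SKO, which was 91.7 ± 4.92% of the summed level of the 4 chromobox genes in DKO and 96.3 ± 0.887% in SKO (SD, n = 3 each). DKO replicate 1 had the lowest share, 86.0%.

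Cbx7 (Entrez 52609, chromosome 15, 79915804 to 79971143), the main chromobox reader of mouse embryonic stem cells, was a minor transcript here. It had 500, 248 and 325 counts in DKO replicates 1 to 3 and 340, 130 and 229 counts in SKO replicates 1 to 3, which correspond to 28.5, 11.7 and 12.6 CPM in DKO and 13.7, 5.99 and 9.41 CPM in SKO. Its mean was higher in DKO, but the groups overlapped, since SKO replicate 1 exceeded DKO replicates 2 and 3. The log2 fold change was 0.85 (SE 0.41, 95% interval -0.06 to 1.77, edgeR adjusted p = 0.159), and it dropped to 0.32 without DKO replicate 1. Apobec3, which overlaps the lower-coordinate end of Cbx7, had at most 28 counts in any library.

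Cbx8 (Entrez 30951, chromosome 11, 119036303 to 119040913), known for repression of the Ink4a-Arf locus in fibroblasts, lies 5027 bases from Cbx2 and was close to the limit of detection. It had 43, 47 and 19 counts in DKO replicates 1 to 3, against 16, 23 and 13 counts in SKO replicates 1 to 3, or 1.80 ± 0.926 CPM in the DKO group and 0.746 ± 0.277 CPM in the SKO group (SD, n = 3 each). DKO replicates 1 and 2 were above the SKO libraries and DKO replicate 3 was among them. The log2 fold change of 1.26 had a wide error (SE 0.62, 95% interval -0.12 to 2.64, edgeR adjusted p = 0.169).

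Cbx6 (Entrez 494448, chromosome 15, 79823898 to 79834333) was the member below the filter. It had 34, 6 and 36 counts in DKO replicates 1 to 3, against 2, 2 and 0 counts in SKO replicates 1 to 3. All DKO libraries were above the SKO libraries, though DKO replicate 2, at 0.282 CPM, was within a few counts of them. Over the groups, 76 counts in DKO against 4 in SKO gave a ratio of 20.9 (exact 95% interval 7.82 to 78.5, counting error only), which was 13.7 without SKO replicate 3. Fitted with no filter among 20319 genes, its log2 fold change was 4.25 (SE 1.10, edgeR adjusted p = 0.00941). Cbx6 also passed the usual filter in 4 of the fits that leave out 1 library, and it was not called in 1 of them, without SKO replicate 3 (3.71, edgeR adjusted p = 0.0524). With at most 2 counts in any SKO library, it could pass only through the DKO libraries, where it is high. These fits therefore add no support for a rise.

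The Cbx6 locus is shared. RefSeq places the readthrough gene Npcd, also named Cbx6-Nptxr, on chromosome 15 from 79786351 to 79834333, so that it covers all of Cbx6, starts at the same base and ends with Nptxr, a neuronal pentraxin receptor gene. Npcd had 744, 1070 and 1268 counts in DKO replicates 1 to 3, against 83, 106 and 58 in SKO replicates 1 to 3. Nptxr had 744, 1077 and 1262 counts in DKO and 83, 106 and 59 in SKO, so the 2 rows carried nearly the same numbers in every library. Both were called higher in DKO, each with a log2 fold change of 3.74 (SE 0.30, edgeR adjusted p = 1.96e-05 for Npcd and 1.87e-05 for Nptxr). No source used here says how reads of overlapping genes were assigned. Whether the Npcd and Nptxr rows hold the same reads is therefore not known, and their calls are not taken as separate observations. It is also not known whether the Cbx6 row shares reads with Npcd, so the level of Cbx6 is uncertain. The 250 bases before the start shared by Cbx6 and Npcd, chr15:79834334-79834583 on the minus strand (RefSeq, GRCm38.p6), are shown with CG dinucleotides in capitals because both transcripts are annotated from this promoter.
Cbx6: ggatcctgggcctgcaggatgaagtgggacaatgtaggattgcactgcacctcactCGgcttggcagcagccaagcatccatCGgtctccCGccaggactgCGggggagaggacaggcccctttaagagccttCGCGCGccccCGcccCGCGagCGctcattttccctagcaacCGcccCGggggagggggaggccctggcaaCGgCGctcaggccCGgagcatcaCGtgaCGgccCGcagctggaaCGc
The window holds 20 CG dinucleotides, reached by 17.9% of all windows, and CACGTG beginning 26 bases before the start.

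In the chromobox family the log2 ratio of Cbx2 to Cbx6 differed by -3.61 between DKO and SKO and that of Cbx6 to Cbx7 by 2.66, in each case without overlap of the groups (exact permutation p = 0.10, 0.257 adjusted over the 9 pairs). With at most 2 counts of Cbx6 in any SKO library, both values rest on the pseudocount of 1. A pseudocount of 5 gave -2.34 for Cbx2 to Cbx6 (exact permutation p = 0.10) and 1.40 for Cbx6 to Cbx7 (exact permutation p = 0.20), and a pseudocount of 0.5 gave -4.07 and 3.12. The ratios of Cbx2 to Cbx7 and of Cbx2 to Cbx8 differed by -0.94 and -1.24, with overlapping groups. Cbx7 made up 5.57 ± 3.64% of the chromobox level in DKO and 2.81 ± 1.11% in SKO, and Cbx8 made up 2.31 ± 1.27% in DKO and 0.913 ± 0.307% in SKO (SD, n = 3 each). In each of the 6 libraries the order per kilobase was Cbx2, Cbx7, Cbx8 and Cbx6.

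Across all 8 genes, the order per kilobase in DKO was Phc1, Cbx2, Scmh1, Phc2, Phc3, Cbx7, Cbx8 and Cbx6, with overlapping ranges between each neighbouring pair down to Phc3. In SKO it was Cbx2, Phc1, Scmh1, Phc2, Phc3, Cbx7, Cbx8 and Cbx6, where only Cbx2 and Phc1 had overlapping ranges. The genotypes shared every position from Scmh1 down. Among the DKO libraries, replicate 1 was the lowest for Cbx2, Phc1, Phc2 and Scmh1 and the highest for Cbx6, Cbx7 and Cbx8. This library also had the smallest total and the largest TMM factor (1.133), and the part of these in the pattern was not tested. All 7 tested members varied more between DKO libraries than between SKO libraries (SD of log2 CPM), as did 70.0% of all tested genes.

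**Figure D3:**
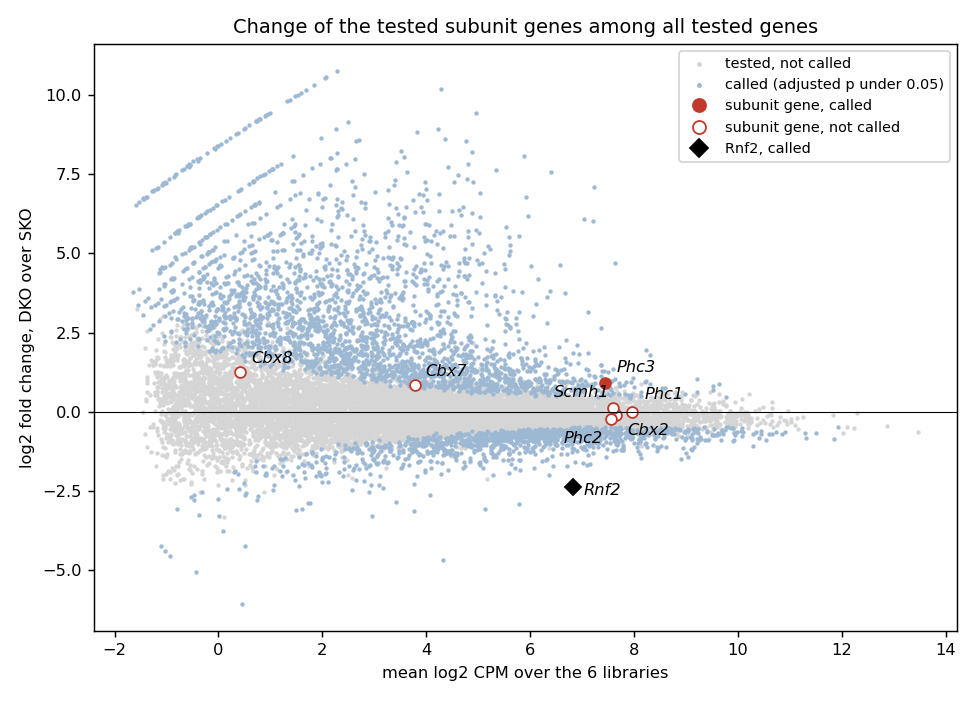
Log2 fold change (DKO over SKO, y axis) against mean log2 CPM (x axis) for 14845 tested genes, with the 7 tested subunit genes as circles and Rnf2 as a diamond; filled symbols were called. Phc3 stands at 0.92 apart from Cbx2, Phc1, Phc2 and Scmh1, which have like abundance and lie between -0.23 and 0.13.

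The catalytic, PCGF and SCM partners of the members were measured in the same fit. Rnf2, the targeted ligase, was called lower (log2 fold change -2.38, SE 0.30, adjusted p = 0.000349). Bmi1, the PCGF partner also known as PCGF4, averaged 298 ± 42.2 CPM in DKO and 326 ± 21.9 CPM in SKO (log2 fold change -0.13, adjusted p = 0.600), and Scml2, an SCM paralog, 143 ± 28.2 CPM in DKO and 174 ± 14.7 CPM in SKO (-0.28, adjusted p = 0.288). Pcgf2, the PCGF alternative to Bmi1, and Ring1 were below the filter. Pcgf2 had 49, 30 and 4 counts in DKO replicates 1 to 3, against 4, 7 and 2 in SKO replicates 1 to 3, so the groups overlapped.

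The related families held scattered calls, to be read beside the 24.7% of all tested genes that were called (17.3% higher and 7.41% lower). Of 24 variant PRC1 genes, 2 were called higher and 0 lower by edgeR (median log2 fold change -0.02), with 4 lower at an unadjusted p under 0.05, 1 by DESeq2 and 0 by voom. The count of 0 lower became 3 without DKO replicate 2, 2 without DKO replicate 3, 4 with the GC and length trend removed and 5 with the replicate block added to that, and the 2 higher became 4 with library totals. The genes called higher in the reported fit were Bcor (3.75) and Pcgf5 (1.26). Of 12 PRC2 genes, 1 rose, Epop (2.83), and 2 fell, Eed (-0.63) and Ezh1 (-0.61), with a median of -0.24. The 2 falls became 0 with library totals and without SKO replicate 2 or 3, and 1 without SKO replicate 1. Of 8 HP1 and other chromodomain genes, 0 were called higher by edgeR, at an unadjusted p under 0.05 or by DESeq2 or voom, and 1 fell, the H3K9 methyltransferase gene Suv39h1 (-0.85), with a median of 0.09. Of 9 tested SAM and MBT domain relatives, Sfmbt2 rose (5.90) and Sfmbt1 fell (-0.62), with a median of -0.17. Eed, Ezh1, Suv39h1 and Sfmbt1 each missed the threshold in at least 1 alternative fit, where their highest adjusted p was 0.0828, 0.112, 0.0508 and 0.0700.

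The genes whose centred log2 CPM profile over the 6 libraries lay nearest to that of Phc3, among 8603 candidates with a mean of at least 3 log2 CPM, were Tyw5, Khdc1a and Ckap2l. Their Euclidean distances were 0.210, 0.210 and 0.228, against a median of 1.55 over the candidates. Tyw5, which encodes a tRNA-modifying hydroxylase, measured 16.1, 10.1 and 19.2 CPM in DKO, against 9.54, 8.25 and 6.62 CPM in SKO. Khdc1a, of the KH-domain family expressed in oocytes, measured 453, 292 and 482 CPM in DKO, against 250.2, 206 and 208 CPM in SKO, and it has close paralogs, so its level is uncertain. Ckap2l, a mitotic spindle gene, measured 59.9, 48.2 and 78.9 CPM in DKO, against 33.7, 34.8 and 32.4 CPM in SKO. In all 3, as in Phc3, DKO replicate 3 was the highest library and DKO replicate 2 the lowest of its genotype. A shared order follows from how these genes were picked. Khdc1a and Ckap2l were called higher (edgeR adjusted p = 0.0115 and 0.0131), and Tyw5 was not called (0.0599).

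Some markers of other ovarian cells differed between the genotypes, in both directions, and their part in the rise of Phc3 was not tested. The summed level was higher in DKO for the granulosa and blood lists and overlapped for theca, stroma and endothelium. Over all tested genes, 17.3% were called higher and 7.41% lower in DKO. Per the labels, granulosa cells were removed by pipetting. The 15 granulosa and cumulus markers summed to 269.6 to 293.5 CPM in DKO and 113 to 139.7 CPM in SKO, with 5 of 11 tested called higher and 1 lower. The 5 became 3 without SKO replicate 1 and 2 without SKO replicate 2. The gene called lower, named after its values were seen, was Cyp19a1, with 16.99 CPM in DKO and 30.0 CPM in SKO (log2 fold change -0.82, edgeR adjusted p = 0.0274, up to 0.107 under the alternatives). The most abundant, Nr5a2 and Ptgs2, reached 117 and 87.1 CPM in DKO, against 79.2 and 3.80 CPM in SKO, and Fshr and Has2 reached 30.7 and 8.78 CPM in DKO, against 0.506 and 1.87 CPM in SKO. Ptx3 was at 0 in all libraries, Foxl2 had at most 39 counts and Amhr2 at most 5. Markers of theca, stroma and endothelium summed to 149 to 163 CPM in DKO and 129.6 to 173 CPM in SKO, with 6 of 10 tested called higher and 1 lower. Among these, Pecam1 and Tek were the most abundant (61.0 and 32.8 CPM in DKO, 109.6 and 25.5 CPM in SKO). Pecam1 was the gene called lower, except without SKO replicate 3. Cyp11a1, Pdgfra and Col1a1 were called higher at 36.9, 4.99 and 1.35 CPM in DKO, against 14.6, 0.766 and 0.0696 CPM in SKO. Star, Tek and Acta2 were not called (log2 fold changes -0.06, 0.36 and 1.32). Below the filter, Cdh5 never exceeded 3 counts, Col1a2 4, and Cyp17a1 and Col3a1 8 each. Col1a2 was at 0 in every DKO library, and Col3a1 at 0 in every SKO library. Blood and immune markers summed to 5.01 to 8.71 CPM in DKO and 1.23 to 3.18 CPM in SKO, and Hba-a1, Hbb-bs and C1qa were at 0 in all libraries. Of the 2 tested, 1 was called higher, and Cd68, a macrophage marker, was not called (2.47 CPM in DKO, 2.02 CPM in SKO). Lyz2, below the filter, had 78 counts in DKO replicate 3 and at most 1 in any other library. It made up 3.03 of the 5.01 CPM summed in DKO replicate 3. Of the oocyte markers, 8 of 15 fell, among them Kit, Bmp15 and Mos (log2 fold changes -0.83, -0.68 and -1.22). The 8 became 5 with library totals or without DKO replicate 1, 4 without SKO replicate 1 or 2, and 3 without SKO replicate 3. Whether the reads of the markers of other cell types came from such cells or from the oocytes themselves was not tested. A different number of other cells and a different amount of RNA per cell cannot be told apart in these pooled samples. Each library was made from 15 oocytes, so the number of oocytes was set by the design. CPM give shares of a library, not amounts of RNA per oocyte.

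**Figure D4:**
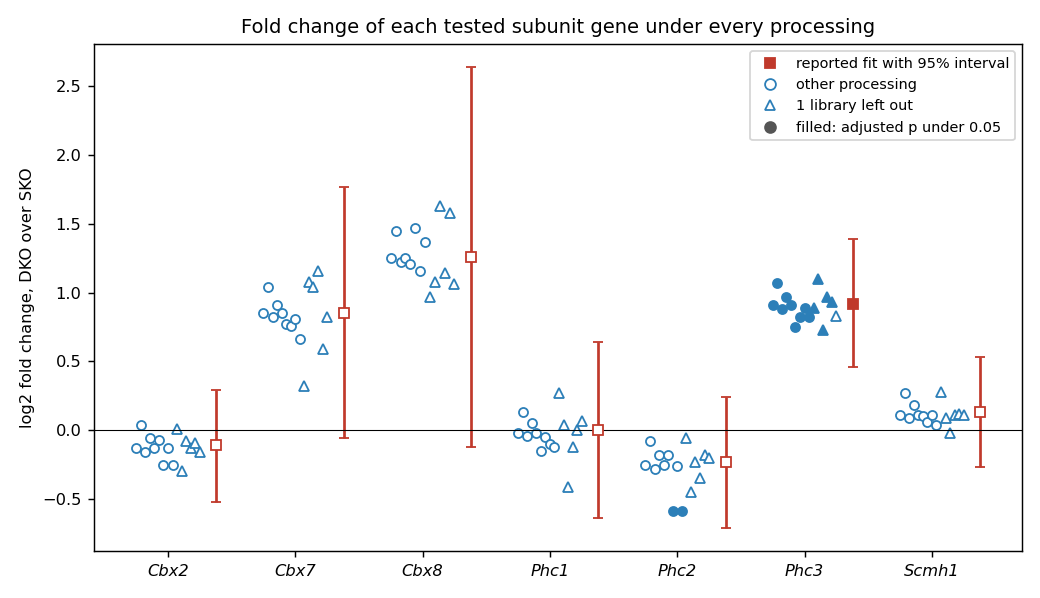
Log2 fold change (DKO over SKO, y axis) of the 7 tested subunit genes under the reported fit (square, with its 95% interval), under other processing (circles) and with 1 library left out (triangles); filled symbols have an adjusted p under 0.05. Phc3 stays between 0.73 and 1.10 and loses its call once, and Phc2 is filled only where the GC and length trend is removed.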

How the data were processed

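RNA-seq was measured in 6 libraries of pooled GV oocytes. The authors deposited unnormalized read counts for each Entrez gene, beside each gene's length (per the file headers). The submitters' processing notes name STAR 2.5.0a and GRCm38 (mm10). No source used here gives the read counter or its handling of strand. All columns carried sample titles and were used.

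Identifiers were matched to RefSeq on GRCm38.p6 (24387 of 24421). Counts were filtered with filterByExpr (minimum count 10, minimum total 15), scaled with TMM and compared between DKO and SKO with the quasi-likelihood test of edgeR 4.0.16 in R 4.3.3, adjusted over all 14845 genes tested. CPM are on TMM-scaled library sizes, levels per kilobase divide them by the deposited length, and paralog ratios used a pseudocount of 1. Standard errors come from the F statistic. DESeq2 1.42.0, voom of limma 3.58.1, other scalings, filters and a GC and length correction were alternatives, and the code was tested on simulated data. Of 123 list entries, 1 was not found. All 8 members are named, with the canonical partners, up to 3 called genes of each other list, the 2 most abundant genes of each list of other cell types, and the 3 nearest profiles of a called member, except for items that are not reported here. Members and lists were chosen with earlier results of these data known, and the E-box was not among the planned measures. Replicates correlated at 0.942 to 0.977 (log2 CPM) and none was a repeat of another. A planned comparison of protein sequences was not made, since protein sequences were not used here.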

Additional observations from a re-analysis of the deposited data

How the results depend on the processing

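Of 104 alternative values for the 7 tested members, 93 kept their direction and side of the threshold, 8 changed sign without a call, 2 gained a call and 1 lost it. With 1 library left out, Cbx2 ranged from -0.30 to 0.01, Phc1 from -0.41 to 0.27, Scmh1 from -0.02 to 0.28 and Phc3 from 0.73 to 1.10 on the log2 scale, and Phc3 lost its call without SKO replicate 3 (0.83, adjusted p = 0.0559). Library totals alone gave Cbx2 0.04 and Phc1 0.13, the stricter filter (50 counts in 3 libraries) gave Phc1 0.05, and Cbx8 did not pass it. Removing the GC and length trend gave Phc2 -0.59 with a call, also with the replicate block (-0.59). The causes were not tested. Falls over all genes numbered 1100, but 596 with library totals, 1765 with the replicate block and GC trend, and 434 to 1501 with 1 library left out (434 without SKO replicate 3, 464 without SKO replicate 2, 516 without SKO replicate 1). Falls in the context lists numbered 15, but 9 with library totals and 5 to 19 with 1 library left out (9, 7 and 5 without SKO replicates 1, 2 and 3). The Cbx7 to Cbx8 difference ranged from -0.88 to 0.16 and that of Phc1 to Phc2 from -0.16 to 0.36 with 1 library left out, and the Cbx6 ratio from 13.7 to 28.9.

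As shares of raw counts, Phc1 held 36.9% and Phc3 36.03% in DKO, and Phc1 43.4%, Phc2 35.3% and Phc3 21.3% in SKO. Cbx8 held 0.838% in DKO, and Cbx2 95.2%, Cbx7 4.39% and Cbx8 0.336% in SKO.

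Deviations of same-numbered libraries correlated at 0.139, 0.0773 and 0.0479, so the numbers were not taken to pair the mice, although each library correlated best with its own number. With the replicate block alone, 2651 genes were called higher and 1364 lower, and Phc3 had a log2 fold change of 0.89 (adjusted p = 0.00768). Depth limits Cbx6 and Cbx8 most, with 4 and 52 counts over the SKO libraries.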
